A study of Mus musculus with 4 samples.

Results

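The CC chemokines Ccl2, Ccl5, Ccl7, Ccl8, Ccl9 and Ccl20 and the CX3C chemokine Cx3cl1, or fractalkine, were examined in differentiating mouse muscle cells given interferon-gamma (IFN-γ). A gene was included when the transcript accession of an array probe mapped to its symbol, and all 7 genes were found among the 19751 genes named on the array. Each had 1 probe, spotted once, except that the Ccl2 probe was spotted 10 times, so no second probe could be set against any of them. The cells were C2C12, an established line of mouse myoblasts derived from a single clone, on day 3 of differentiation. Treated cultures received IFN-γ at 1 ng/ml in differentiation medium with horse serum, which the labels put at 2% in one field and at 10% in another. Control cultures received the same medium with no cytokine and were taken on the same day. Treated RNA, titled as replicates 1 to 4, was hybridised in Cy5 together with control RNA in Cy3 on 4 arrays. These 2-colour arrays were on a single slide, and the result on each array is a log2 ratio of treated over control.

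Chemokines are small secreted proteins that draw leukocytes along a gradient by binding receptors on their surface. CC chemokines are named for adjacent cysteines near their start. Ccl2, Ccl7 and Ccl8 belong to the monocyte chemoattractant group, Ccl5 (RANTES) attracts T cells and monocytes, Ccl9 acts on myeloid cells, and Ccl20 binds the receptor Ccr6. Cx3cl1 differs in that it is made as a membrane protein on a mucin stalk, which holds cells that carry Cx3cr1 and can be cut off by Adam10 and Adam17. In muscle, such signals are known for bringing in the monocytes and macrophages that take part in repair.

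RefSeq promoter windows (GRCm38.p6) were at hand for 4 of the 7 genes, namely Ccl8, Ccl9, Ccl20 and Cx3cl1. The 250 bases before each start are printed 5′ to 3′ on the gene's strand, Ccl8 and Cx3cl1 because they had the largest ratios among these 4 genes, Ccl9 for the smallest ratio of the genes tested and Ccl20 as the gene without signal. Capitals mark a match to the NF-kappaB site on either strand.
Ccl8 (chr11:82114935-82115184, + strand): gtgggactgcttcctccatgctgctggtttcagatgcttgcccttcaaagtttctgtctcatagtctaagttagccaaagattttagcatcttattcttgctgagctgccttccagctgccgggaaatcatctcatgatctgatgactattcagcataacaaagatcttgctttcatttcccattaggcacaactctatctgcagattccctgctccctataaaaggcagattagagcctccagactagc
Cx3cl1 (chr8:94771930-94772179, + strand): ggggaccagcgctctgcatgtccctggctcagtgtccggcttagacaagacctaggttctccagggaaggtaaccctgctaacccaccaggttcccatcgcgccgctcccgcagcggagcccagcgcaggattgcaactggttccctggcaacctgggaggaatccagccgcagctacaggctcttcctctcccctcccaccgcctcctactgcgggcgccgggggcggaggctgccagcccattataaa
Ccl9 (chr11:83578637-83578886, − strand): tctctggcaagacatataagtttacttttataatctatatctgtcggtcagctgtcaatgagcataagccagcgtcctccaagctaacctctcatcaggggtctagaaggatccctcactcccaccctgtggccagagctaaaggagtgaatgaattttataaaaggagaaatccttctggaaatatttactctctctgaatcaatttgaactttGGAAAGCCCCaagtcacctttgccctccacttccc
Ccl20 (chr1:83116516-83116765, + strand): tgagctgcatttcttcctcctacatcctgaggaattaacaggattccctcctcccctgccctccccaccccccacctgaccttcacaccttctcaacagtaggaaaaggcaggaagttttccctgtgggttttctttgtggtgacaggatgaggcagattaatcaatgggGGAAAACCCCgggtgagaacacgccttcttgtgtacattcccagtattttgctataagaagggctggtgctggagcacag
The windows were searched on both strands, overlapping matches allowed, for the gamma-activated site GAS (TTCNNNGAA), the core of the interferon-stimulated response element and the NF-kappaB site. The NF-kappaB site was found as GGAAAGCCCC in Ccl9, 35 to 26 bases before the start, and as GGAAAACCCC in Ccl20, 80 to 71 bases before it. Neither GAS nor the response element core was found in the 4 windows, and no motif searched was found in those of Ccl8 and Cx3cl1. Among 32851 promoters in the table, the same 250 bases held GAS in 7.02%, the response element core in 2.98% and the NF-kappaB site in 7.25%. A match describes the letters alone.

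With IFN-γ the transcripts of 6 of the 7 genes were called higher. The rises were 7.84-fold for Ccl8, 4.09-fold for Ccl2, 3.83-fold for Ccl7, 3.12-fold for Cx3cl1, 2.57-fold for Ccl5 and 1.43-fold for Ccl9. The call for Ccl9 depended on the scaling, with a log2 ratio of −0.092 when the arrays were centred on the tested genes. Ccl20 was not well above background in either channel on any array and was not tested. Of the 15678 genes tested, 19.8% passed limma's test at 0.05 after adjustment as higher and 13.9% as lower. Rises of at least 2-fold were called for 1.79% of tested genes and for 5 of the 6 tested chemokines. Of all calls 58.9% were rises, a share that became 79.8% with median centring and 46.2% when the arrays were centred on the tested genes. The median log2 ratio of these 6 chemokines was 1.79, beside 0.026 over all tested genes. All 6 passed the detection filter in the control channel as well as in the treated channel. Every array had treated RNA in Cy5, so treatment and dye cannot be told apart, and in bulk RNA a change in RNA per cell and in the number of expressing cells cannot be told apart either.

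**Figure D1:**
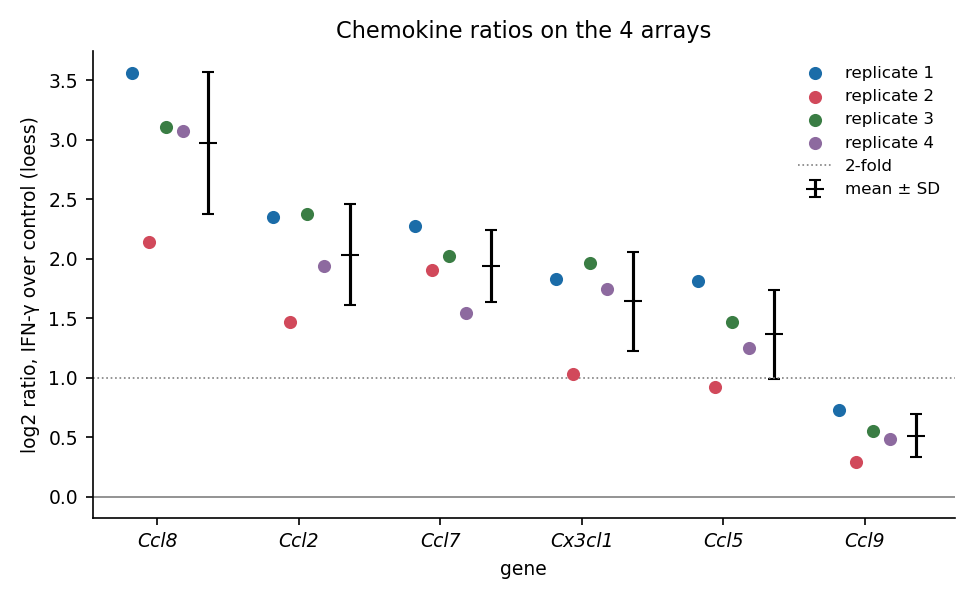
Log2 ratio of IFN-γ over control on the y axis for each tested chemokine on the x axis. Coloured points are the 4 arrays, black bars the mean ± SD, and the dotted line marks 2-fold; all points lie above 0, Ccl8 is highest and Ccl9 lowest on each array, and replicate 2 is lowest for each gene but Ccl7.

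Signal and labels were checked on each array. Median spot intensities over all probes were 79.8 to 97 in Cy3 and 149.5 to 264 in Cy5, over local backgrounds of 35 to 39 and 40.5 to 42. Replicate 2 had the lowest Cy5 median and a mean correlation of 0.615 with the other arrays, whose own means were 0.758 to 0.810. The 6 interferon target genes fixed as a check of the treatment were all higher. Among them were Cxcl10 with a mean log2 ratio of 4.21, Cxcl9 with 3.81, Gbp2 with 3.68, Irf1 with 2.74 and Socs1 with 1.75. Of 9 muscle markers 9 were detected in both channels, among them Myod1 and Des. Detection alone does not set the cell type, because fibroblast markers were detected too, 6 of 7 in Cy3 and 7 of 7 in Cy5.

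Ccl8, also called MCP-2, had the largest response. Its unnormalised control intensities were 145.5, 125, 116 and 116.5 on replicates 1 to 4, and its treated intensities were 6654, 1741, 6881 and 4388. Local background at this spot was 34 to 37 in Cy3. The control signal thus lay only 3.14 to 4.16 times above the local background, while the treated signal lay 43.0 to 171 times above it. The normalised log2 ratios were 3.56, 2.14, 3.11 and 3.07, with replicate 2 the lowest. Their mean was 2.97 ± 0.60 (SD, n = 4), with an adjusted p of 0.000506 (limma). The 95% interval of the mean was 2.45 to 3.49, and Ccl8 ranked 62 among all tested genes by its ratio. Without replicate 2 the mean ratio was 3.25.

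Ccl2 (MCP-1), a major attractant of monocytes through the receptor Ccr2, gave signal in control RNA at 8.50 to 15.5 times its local background. Its control intensities, each the mean of 10 spots, were 541, 325.9, 342.4 and 428.2, and its treated intensities were 10190, 2770, 11910 and 7097. The log2 ratios were 2.35, 1.47, 2.37 and 1.93, so that replicate 2 was again the lowest. The mean was 2.03 ± 0.42 (SD, n = 4), with a 95% interval of 1.65 to 2.42 and an adjusted p of 0.000661 (limma).

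The 10 spots of Ccl2 give the spread within an array. The SD between spots was 0.047, 0.067, 0.048 and 0.038 on replicates 1 to 4, against an SD of 0.42 between arrays. On replicate 2 the spots ran from 1.36 to 1.56, below the lowest spot of each of the other arrays, which were 2.27, 2.28 and 1.86. Spots of an array share RNA, labelling and hybridisation, so their SD covers spot error alone.

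**Figure D2:**
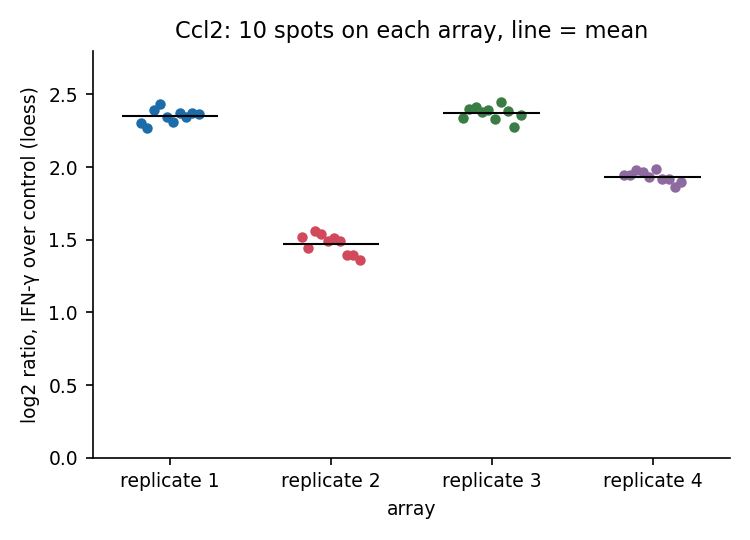
Log2 ratio of IFN-γ over control on the y axis for each of the 10 Ccl2 spots on the 4 arrays of the x axis, with a line at the array mean. Spots of an array lie close together, replicates 1 and 3 share a range near 2.35 and 2.37, and replicates 2 and 4 lie lower, at 1.47 and 1.93.

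Ccl7 (MCP-3), another attractant of monocytes, responded to nearly the same degree as Ccl2. Control intensities were 145, 105, 102 and 150.5, and treated intensities were 2638, 1217, 2566 and 1738. The log2 ratios were 2.27, 1.90, 2.02 and 1.54. Replicate 4, not replicate 2, was the lowest here. The mean was 1.94 ± 0.30 (SD, n = 4), with a 95% interval of 1.64 to 2.23 and an adjusted p of 0.000273 (limma).

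Cx3cl1, the membrane-bound chemokine, had a clear signal in control cells already. Its control intensities were 1821, 1331, 1136 and 1516, which is 27.7 to 55.2 times the local background. Its treated intensities were 23460, 8124, 29700 and 22260, with replicate 2 far below the others. The log2 ratios were 1.83, 1.03, 1.96 and 1.74. The mean was 1.64 ± 0.42 (SD, n = 4), with a 95% interval of 1.26 to 2.02 and an adjusted p of 0.00131 (limma).

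Ccl5 had control intensities of 141, 119, 124 and 132 and treated intensities of 1688, 624, 1983 and 1138. The log2 ratios were 1.81, 0.92, 1.47 and 1.25, highest on replicate 1 and lowest on replicate 2. The mean was 1.36 ± 0.37 (SD, n = 4), with a 95% interval of 1.02 to 1.71 and an adjusted p of 0.00179 (limma).

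Ccl9, a chemokine of myeloid cells, had the smallest change of the 6. Control intensities were 75, 67, 62 and 73 and treated intensities were 308, 164, 316 and 250. The control signal was well above background on 3 of 4 arrays, the exception being replicate 3, and lay 1.63 to 2.14 times above its local background. The log2 ratios were 0.73, 0.29, 0.55 and 0.48, with a mean of 0.51 ± 0.18 (SD, n = 4), a 95% interval of 0.31 to 0.72 and an adjusted p of 0.00715 (limma). This call depended on the scaling, since Ccl9 had −0.092 (adjusted p = 0.505, limma) when each array was centred on the median of the tested genes, and 1.18 with the ratio that Feature Extraction itself computed. Adjusted over all 28933 tested probes it had a p of 0.00966 (limma), and it no longer passed there without replicate 3 (adjusted p = 0.0594, limma) or without replicate 4 (0.0521, limma).

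Ccl20 gave no usable signal. Its control intensities were 41, 55, 48 and 50 against local backgrounds of 35.5, 43, 41 and 38. Its treated intensities were 42, 45, 43 and 44 against local backgrounds of 41.5, 36, 38 and 40.5. The ranges of both channels overlapped, and the spot was not well above background in any of them, so neither a level nor a change of Ccl20 could be measured with this probe.

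**Figure D3:**
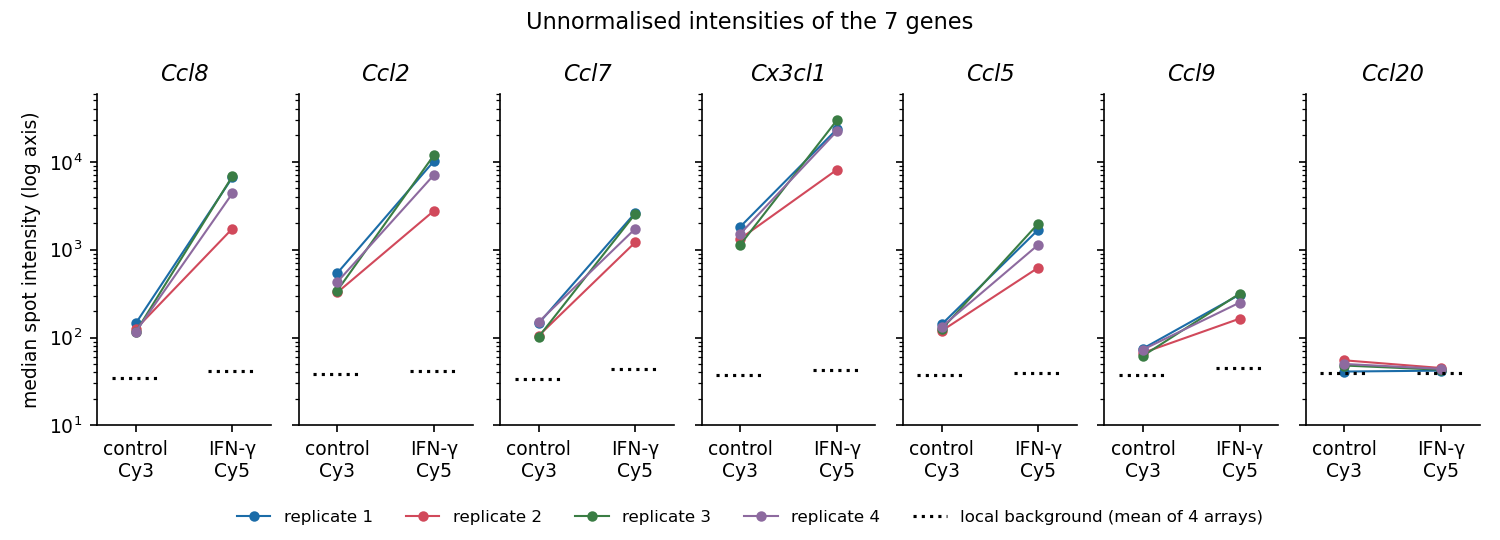
Unnormalised median spot intensity (log axis) of the 7 genes in control (Cy3) and IFN-γ (Cy5) RNA, a coloured line for each array and dotted marks for the mean local background. For Ccl8, Ccl2, Ccl7, Cx3cl1, Ccl5 and Ccl9 each treated value lies above each control value, whereas Ccl20 stays at background in both channels; replicate 2 has the lowest treated value of each tested gene.

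For the 6 tested genes the lowest treated intensity exceeded the highest control intensity, before and after normalisation. After normalisation the treated channel spread more widely between arrays than the control channel. Normalised log2 values of Cx3cl1 spanned 0.11 in control and 0.98 in treated RNA, those of Ccl2 spanned 0.30 and 1.20, and those of Ccl8 spanned 0.42 and 1.17. The lowest normalised treated value was on replicate 2 for 5 of the 6 genes and on replicate 4 for Ccl7. Replicate 2 was also the array with the lowest overall Cy5 intensity, and the part of this in the smaller ratios was not tested beyond leaving that array out. Without replicate 2 the mean log2 ratios were 3.25 for Ccl8, 2.22 for Ccl2, 1.95 for Ccl7, 1.84 for Cx3cl1, 1.51 for Ccl5 and 0.59 for Ccl9.

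By size of response the order was Ccl8, Ccl2, Ccl7, Cx3cl1, Ccl5 and Ccl9. Ccl8 was above Ccl2 on 4 of 4 arrays by a mean of 0.94 log2 units, although the array values of the pair overlapped across arrays. Ccl2 and Ccl7 differed by 0.096, less than the SD of either, and Ccl2 was above Ccl7 on 3 of 4 arrays. Ccl7 and Cx3cl1, and Cx3cl1 and Ccl5, overlapped as well, with gaps of 0.30 and 0.28. Of neighbours in this order only Ccl5 and Ccl9 did not overlap, with a gap of 0.85. Ccl2 and Ccl7 changed places with a normexp offset of 16 (2.09 and 2.15), with no background subtraction (2.06 and 2.09) and with Feature Extraction's ratio (2.12 and 2.42). Without replicate 4 they were level at 2.06 and 2.07. Cx3cl1 and Ccl5 changed places with Feature Extraction's ratio (1.66 and 1.71), which the authors' value table repeated.

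Several of these genes lie side by side in the genome. In the RefSeq table (GRCm38.p6) Ccl2, Ccl7, Ccl11, Ccl12, Ccl8 and Ccl1 follow each other on chromosome 11, and so do Ccl5, Ccl9, Ccl6 and Ccl3. Of the neighbours that are no members, Ccl11 (eotaxin), which attracts eosinophils, had ratios of 0.63, 0.59, 0.57 and 0.48. Its mean of 0.57 ± 0.06 (SD, n = 4) was past the threshold with an adjusted p of 0.00196 (limma), but it was well above background in control RNA on 1 array alone, and under centring on the tested genes it had −0.22. Ccl12, Ccl1, Ccl6 and Ccl3 did not pass the detection filter. Cx3cl1 lies between Ccl22 and Ccl17 on chromosome 8. There Ccl22 did not pass the detection filter, and Ccl17 had 0.19 ± 0.15 (SD, n = 4) with an adjusted p of 0.104 (limma).

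Of 16 other ligands, 15 CC chemokines and the C chemokine Xcl1, 6 were tested, of which 1 rose, 2 fell and 3 did not pass. Their median log2 ratio was 0.048, beside 0.026 for all tested genes. The ligand that rose was Ccl11. Ccl27a, a skin chemokine, had −0.30 ± 0.16 and Ccl19, a ligand of Ccr7, had −0.23 ± 0.08 (SD, n = 4), past the threshold with adjusted p of 0.0323 and 0.0386 (limma). Under median centring they had −0.067 and 0.00086, below the 0.69 of all genes, and under centring on the tested genes −0.74 and −0.67. Other probes of Ccl27a had −0.16 to 0.049 and the second probe of Ccl19 had 0.063. Ccl25 had 0.069 ± 0.18 and did not pass. When replicate 1, 3 or 4 was left out, 0 ligands were called lower by limma, and 2 were at an unadjusted p under 0.05. Without replicate 2, 2 ligands were called higher. Median centring called 3 ligands higher and 1 lower, and centring on the tested genes 0 higher and 4 lower. Of all 15678 tested genes these scalings called 10499 and 4709 higher and 2658 and 5478 lower.

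Among receptors, 13 of 18 were tested, of which 2 rose, 2 fell and 9 did not pass (median log2 ratio 0.020). Ccr8, a receptor of mouse Ccl8, was well above background in both channels on 4 of 4 arrays and had 0.038 ± 0.079 (SD, n = 4), which did not pass. Ccr2, the receptor of Ccl2 and Ccl7, and Ccr1, which binds Ccl5, did not pass the detection filter, Cx3cr1 had a ratio of 0.028, and Ccr6, the receptor of Ccl20, had 0.020, neither well above background in control RNA on any array. Ackr3, a scavenging receptor that binds CXC chemokines, rose by 0.73 ± 0.04 (SD, n = 4), with an adjusted p of 0.000765 (limma). Ackr4, which takes up several CC chemokines, was called higher as well, at least 1.17-fold, but was not well above background in control RNA on any array and had −0.37 under median centring. Ccr3, the eotaxin receptor, which also binds Ccl5 and Ccl7, was detected on 4 of 4 arrays in both channels and had −0.53 ± 0.10 (SD, n = 4), past the threshold with an adjusted p of 0.00320 (limma). Ccr7, the Ccl19 receptor, was also called lower with −0.29, and Ccrl2 had 0.12 ± 0.11 and did not pass. When replicate 1, 3 or 4 was left out, 1 receptor was called higher and 1 lower. Other scalings gave more lower calls, with 1 higher and 9 lower under median centring and 1 higher and 12 lower under centring on the tested genes. These scalings called 2658 and 5478 of all 15678 tested genes lower.

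Of the proteases, sheddases and their inhibitors, 9 of 13 were tested, of which 2 rose, 0 fell and 7 did not pass (median log2 ratio 0.15). Ctss, a cysteine protease that can also cut Cx3cl1, was called 2.41-fold higher, with an adjusted p of 0.00174 (limma). It was not well above background in control RNA on any array, and its size depended on the scaling. Its log2 ratio was 1.27 with loess, 0.57 under centring on the tested genes and 4.39 with Feature Extraction's ratio. Adam10, a sheddase of Cx3cl1, rose by 0.47 ± 0.15 (SD, n = 4), with an adjusted p of 0.00666 (limma). Adam17, the other sheddase, had 0.15 and did not pass, and the brightest gene of the list that did not pass was Timp1 with 0.14 ± 0.29. At an unadjusted p under 0.05 (limma) 3 genes were higher and 0 lower, the methods' t-test called 2 higher and 0 lower, and without replicate 2 limma called 5 higher. Median centring called 9 of 9 higher and centring on the tested genes 5, beside 67% and 30% of all tested genes.

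Chemokines are held at cell surfaces by heparan sulfate. Of 17 tested genes of 19 that carry, build or edit these chains, 7 rose, 1 fell and 9 did not pass (median log2 ratio 0.30). Ext1, a chain polymerase, rose by 0.68 ± 0.07, Extl2 by 0.65 ± 0.15 and Sulf2, an extracellular sulfatase, by 0.59 ± 0.20 (SD, n = 4), with adjusted p of 0.00111, 0.00261 and 0.00563 (limma). Gpc1, the brightest gene that did not pass, had 0.098 ± 0.16. Feature Extraction's ratio gave 4 genes higher in place of 7, and without replicates 1, 3 or 4 in turn 4 rose each time. Median centring called 16 higher and 0 lower, beside 67% of all tested genes higher. Centring on the tested genes called 11 higher and 2 lower, beside 30% higher.

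Among transcription factors known to act on chemokine genes, 20 of 21 were tested, of which 9 rose, 5 fell and 6 did not pass (median log2 ratio 0.21). Those of the interferon pathway had the largest ratios of the list. Irf1 rose by 2.74 ± 0.20, Irf9 by 2.24 ± 0.11 and Stat2 by 2.23 ± 0.11 (SD, n = 4), with adjusted p of 1.73e-05, 1.43e-05 and 1.43e-05 (limma), while the second probe of Irf1 had 0.29. Cebpd had −0.0064 ± 0.14. Of the NF-kappaB subunits, Nfkb1 rose by 0.31, whereas Rela had −0.34, Relb had −0.28 and Nfkb2 had −0.56, all 3 past the threshold under loess. Rel had −0.0069 and did not pass, and the other 2 genes called lower were Jun with −0.83 and Stat3 with −0.65. The second probes of Stat3 and Relb had 0.16 and −0.17, neither past the threshold, and that of Nfkb1 had 0.60. Jun, Stat3, Rela, Relb and Nfkb2 turned positive under median centring, with 0.19, 0.36, 0.68, 0.71 and 0.43 against 0.69 for the median of all genes. Without replicate 3, 5 genes of the list were called higher and 2 lower, and without replicate 1 or 4, 6 were higher and 3 lower. Median centring called 17 higher and 1 lower, beside 67% of all tested genes higher. Centring on the tested genes called 9 higher and 2 lower, beside 30% higher.

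Of 16 NF-kappaB kinases and inhibitors, all tested, 4 rose, 1 fell and 11 did not pass (median log2 ratio 0.093). Nfkbiz, an atypical nuclear inhibitor protein, had 0.84 ± 0.51 and Ikbkb, a kinase of the pathway, 0.52 ± 0.23 (SD, n = 4), past the threshold with adjusted p of 0.0177 and 0.0112 (limma), and Bcl3 had −0.51 ± 0.08 with 0.00296. Bcl3 had 0.42 under median centring, below the median of all genes. Nfkbiz rested largely on replicate 2, with 1.59 there and 0.55 to 0.65 on the other arrays. Tnip1 had −0.037 ± 0.11 and did not pass. Ikbkg, Map3k14 and Map3k7 did not pass by their brightest probe either. Another probe of each had 0.49, −0.68 and 0.24, with adjusted p of 0.00932, 0.0276 and 0.0297 (limma). A further probe of Map3k7 had 0.17, and other probes of Nfkbib, Tnip1 and Traf2 did not pass. Without replicate 3 limma called 0 of the 16 genes higher (4 at an unadjusted p under 0.05), without replicate 4 it called 2, and without replicate 2 it called 6 higher and 3 lower. Median centring called 15 higher and 0 lower, beside 67% of all tested genes higher. Centring on the tested genes called 8 higher and 2 lower, beside 30% higher.

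Chemokine transcripts are short-lived, and 13 genes that govern their decay or stability were all tested. Of these 4 rose, 2 fell and 7 did not pass (median log2 ratio 0.067). Hnrnpd, which binds AU-rich elements, had 0.65 ± 0.40 and Zfp36l2, a decay factor, 0.60 ± 0.39 (SD, n = 4), past the threshold with adjusted p of 0.0200 and 0.0245 (limma), both with their highest value on replicate 2. Khsrp had −1.53 ± 0.91 with an adjusted p of 0.0146 (limma), but its second probe had 0.016. Elavl1 had −0.47 ± 0.39 and did not pass, and its second probe had 0.18. Without replicate 3 limma called 0 of the 13 genes in either direction, with 3 higher and 3 lower at an unadjusted p under 0.05, and without replicate 1 or 4 it called 1 higher and 1 lower. Median centring called 12 higher and 0 lower, beside 67% of all tested genes higher. Centring on the tested genes called 4 higher and 2 lower, beside 30% higher.

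**Figure D4:**
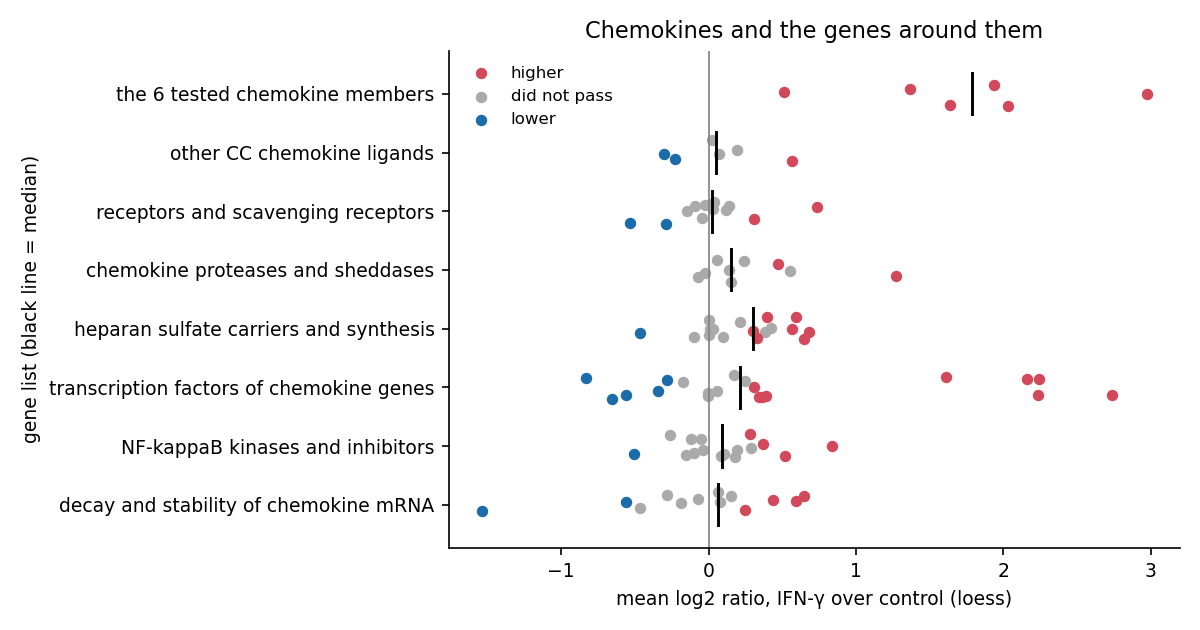
Mean log2 ratio of IFN-γ over control on the x axis for the 6 tested chemokines and for the tested genes of 7 lists, in rows; red points were called higher, blue lower and grey did not pass, and black lines are medians. The chemokine median of 1.79 lies above the list medians of 0.020 to 0.30, and only transcription factors of the interferon pathway reach the range of Ccl2 and Ccl8.

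Markers of other cell types that make chemokines were mixed. Of 11 monocyte and macrophage markers 7 were tested, of which Cd14 rose by 0.59 ± 0.15 and Csf1r had −0.40 ± 0.04 (SD, n = 4), past the threshold, while Ptprc had 0.011 ± 0.099. The other probes of Csf1r had −0.061 and 0.030. Lyz2, Tyrobp and Spi1 were not well above background in either channel on any array. The median log2 ratio of the list was 0.011, and Itgam, another macrophage marker, had −0.14 ± 0.35 and did not pass. Of 7 fibroblast markers 6 were tested and 5 of them rose, among them Col3a1 by 1.15 ± 0.30 (SD, n = 4), and the list's median was 0.40. Of 6 tested T and NK cell markers 1 rose and 2 fell, of 4 tested endothelial markers 0 rose and 1 fell, and of 9 muscle markers 0 rose and 6 fell. Of all tested genes 13.9% were called lower. In the endothelial and muscle lists limma gave 0 higher at an unadjusted p under 0.05 as well, and the methods' t-test called 0 higher. Some falls depended on the scaling. Under median centring Myh3, Tnnt3 and Mymk had 0.43, 0.39 and 0.10, and Cd4 and Cd3e 0.53 and 0.33, below the 0.69 of all genes. Second probes of Myh3 and Tnnt3 had −0.57 and −0.65, but that of Cd4 had 0.052. The methods' t-test called 0 T and NK cell markers lower. Of the fibroblast markers 2 were called higher without replicate 3 or 4 and by the methods' t-test, and 3 without replicate 1. Under centring on the tested genes Fap and Lum, also among the 5, had −0.54 and −0.096. Col3a1 had 1.53 there, Col1a1 0.82 and Pdgfra 0.66. Summed unnormalised intensities over background were higher in Cy5 for all 5 marker lists, as was the median over all probes, and were not scaled for this difference between the dyes. They were 27500 to 40300 in Cy3 and 103000 to 169000 in Cy5 for macrophage markers, and 42500 to 80800 and 399000 to 503000 for fibroblast markers. The macrophage sum mainly reflects Itgam alone. Its mean log2 intensity over both channels was 15.9, and Csf1r, the next brightest tested macrophage marker, had 9.78. Muscle markers had 121000 to 190000 and 293000 to 558000, T and NK cell markers 1610 to 2020 and 3680 to 8430, and endothelial markers 1500 to 2170 and 2410 to 6780. The part of these cell types in the chemokine values was not tested.

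Genes outside the family with the most similar ratios over the 4 arrays were found among 15040 named genes by the root mean square difference in log2 units. For Ccl8 they were Plac8 (0.172) and Tapbp (0.209), for Ccl2 Tmem140 (0.107) and C3 (0.112), and for Ccl7 Rsad2 (0.136) and Samd9l (0.199). For Cx3cl1 they were Nagpa (0.123) and Amy1 (0.168), for Ccl5 H2-DMa (0.0621) and Il15 (0.0790), and for Ccl9 Ctla2b (0.0459) and Cfap20 (0.0534). With 4 arrays the measure mainly reflects the size of the ratio. C3, nearest to Ccl2, encodes the central complement protein and had a mean log2 ratio of 2.13, beside 2.03 for Ccl2, and Il15, near Ccl5, encodes a cytokine of NK and T cells and had 1.35, beside 1.36 for Ccl5.

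**Figure D5:**
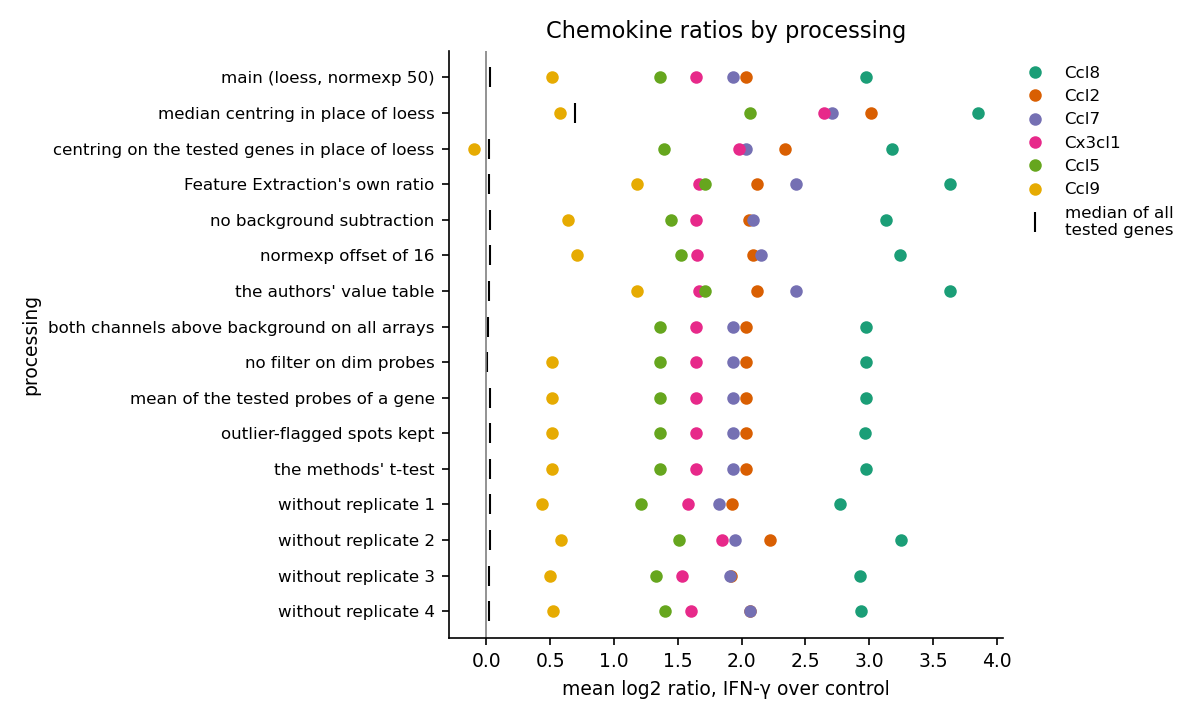
Mean log2 ratio of IFN-γ over control on the x axis for the 6 tested chemokines under each way of processing, in rows; the black tick is the median of all tested genes. Ccl8 stays highest in every row, and Ccl9 lies below the tick under both kinds of median centring. Ccl2 and Ccl7 change places in some rows, and Cx3cl1 and Ccl5 with Feature Extraction's ratio and the authors' value table.

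How far the processing moved a chemokine differed between genes. Against the loess values, Feature Extraction's ratio moved Cx3cl1 from 1.64 to 1.66 and Ccl2 from 2.03 to 2.12. It moved Ccl7 from 1.94 to 2.42, Ccl5 from 1.36 to 1.71, Ccl8 from 2.97 to 3.63 and Ccl9 from 0.51 to 1.18. A smaller normexp offset of 16 in place of 50 moved Ccl9 to 0.71, Ccl8 to 3.24 and Cx3cl1 to 1.65. In control RNA Ccl5, Ccl7, Ccl8 and Ccl9 lay at most 5 times above their local background, whereas Cx3cl1 and Ccl2 lay at least 8.50 times above theirs. Other scalings moved the brighter genes as well. Median centring gave 2.65 for Cx3cl1 and 3.01 for Ccl2 but 0.58 for Ccl9, with a median of 0.69 over all genes. Centring on the tested genes gave 1.98 for Cx3cl1, 2.34 for Ccl2, 1.39 for Ccl5, 2.04 for Ccl7, 3.18 for Ccl8 and −0.092 for Ccl9. The part of control brightness in these moves was not tested.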

How the data were processed

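Labelled RNA (8 µg of total RNA) of C2C12 cells was read on 4 arrays, all on 1 slide. Per the file headers, the deposited scanner files come from Agilent Feature Extraction (10.7.3.1) and hold median spot and background intensity, processed intensity and a log10 ratio of Cy5 over Cy3. The authors then worked in GeneSpring with log2 values, filtered by detection flags and used an unpaired test with a 2-fold minimum, per the series' design text. The deposited value table is on a log2 scale with Cy5 over Cy3, since its slope on the scanner log10 ratio was 3.32 on every array. Its column medians were −0.109, −0.116, −0.125 and −0.105, and its centring stays unknown. Nothing says that the controls came from different dishes, and p-values measure only the spread of these 4 arrays, which may be technical.

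Median intensities were corrected with normexp (offset 50) and normalised by loess within arrays in limma 3.58.1 (R 4.3.3), with control spots at weight 0, outlier-flagged spots left out and spots of a probe averaged. Of 39429 probes, 26055 received 1 symbol through their accession in the RefSeq table (GRCm38.p6), 0 several and 13374 none. Probes entered the test if at least 3 of 4 arrays showed them well above background in one channel, and the brightest tested probe stood for its gene. The mean ratio was tested against 0 with lmFit and eBayes, two-sided, and p-values were adjusted by Benjamini-Hochberg over the 15678 genes. The script recovered 100% of 200 changed probes among 19300 simulated ones, and called 28 unchanged ones. The planted changes were at least 2-fold, on probes brighter in control than those of Ccl5, Ccl7, Ccl8 and Ccl9, with a single noise level. Recovery of smaller or dimmer changes was not tested. The fold written as "at least" compares normalised channel means (loess, then Aquantile) with the array's lowest detected signal or the probe's own, and is open to dye bias and to the scaling. Named genes are all members, up to 3 called genes of each list with the largest ratios and its brightest gene that did not pass, the interferon targets, and the 2 genes nearest to each member by ratio. Other genes were named after their values were seen, and some named by this rule are not reported here. The members and lists were chosen with earlier results of these data known.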

Additional observations from a re-analysis of the deposited data

Results flagged for a closer look

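Among 38 members and named genes checked, 6 had an array whose ratio stood far from the other 3, and chance gives about 1 in 20. None of the 6 tested chemokines was among them. Nfkbiz had 1.59 on replicate 2, Hnrnpd 1.24 and Zfp36l2 1.18 on the same array, where Tnip1 had −0.209. Ctss had 1.78 and Cxcl9 4.22 on replicate 1, both higher than on the other arrays.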

How the results depend on the processing

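Ccl2, Ccl5, Ccl7, Ccl8 and Cx3cl1 were higher and past the threshold in all 16 alternatives, within 1.92 to 3.01, 1.21 to 2.06, 1.82 to 2.71, 2.77 to 3.85 and 1.53 to 2.65. The alternatives are not independent. These genes had no second probe, so the filter, probe-mean and t-test settings could change the p-value or the call but not the ratio. The authors' value table repeated Feature Extraction's ratio for them. Ccl9 had −0.092 with centring on the tested genes, missed the 2-fold minimum of the methods' test with 0.51, and could not be tested when both channels had to be detected on all arrays. Median centring gave 10499 genes higher, and 73 of the pathway lists in place of 29. Centring on the tested genes gave 4709 higher and 5478 lower, and 24 list genes lower in place of 13. The methods' t-test with its 2-fold minimum gave 279 higher and 119 lower, and 6 and 0 list genes. Leaving out each replicate gave 1596 to 4066 genes higher and 925 to 2973 lower, in place of 3110 and 2173, and 13 to 38 list genes higher and 5 to 16 lower, always fewest without replicate 3 and most without replicate 2. The cause was not tested. Each ratio sets a treated sample against the control RNA on its own array, so the limma test kept that pairing. The methods' t-test compared the channels without it. There is a single group of ratios. The number of arrays limits the precision, and no dye swap was made.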
